A study of Mus musculus with 16 samples.

Results

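Expression of voltage-gated potassium channels of the Kv1 family and of their beta subunits was examined in parvalbumin (PV) interneurons of the mouse cortex. The rule is a list of names that uses no measured value: the 5 alpha genes Kcna1, Kcna2, Kcna3, Kcna4 and Kcna6 and the 3 beta genes Kcnab1, Kcnab2 and Kcnab3, which make 8 of the 54532 genes in the table. It was measured by RNA-seq of sorted cells in 16 libraries. The 9 control libraries came from PV-Cre;lsl-eGFP mice, in which Cre recombinase made in PV cells switches on enhanced green fluorescent protein (eGFP). The 7 eGFP-GluA2 libraries came from PV-Cre;lsl-eGFP-GluA2 mice, in which the same driver switches on eGFP fused to GluA2, the AMPA receptor subunit that limits calcium entry. All were adult mice (113.1 ± 11.6 days over the whole study, spread as the labels give it), both genotypes carried PV-Cre and a fluorescent transgene, and per the labels the question was how loss of calcium-permeable AMPA receptors affects these cells. Cortical pieces were fixed before they were taken apart, and green cells with a nucleus (positive for the dye DRAQ5) were collected from each cortex. Libraries are numbered as biological replicates, with no sex, litter or date per library in the sources used here, so p-values measure the spread between these libraries.

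Kv1 channels are tetramers of alpha subunits that open at voltages near rest and pass potassium outwards. Kv1.1 (Kcna1) and Kv1.2 (Kcna2) are found together at the axon initial segment, beside nodes of Ranvier and at presynaptic terminals, where they limit excitability and shape the spike. In fast-spiking PV cells they are known for the delay before the first spike near threshold. Beta subunits bind the cytoplasmic side of the tetramer: they aid its transport to the axon, and Kvβ1 (Kcnab1) carries an N-terminal segment that can block the open pore.

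The alpha genes are close relatives, so the part of each that codes for the selectivity filter is shown, to let a reader see how alike and how different the sequences are that reads had to be assigned between. Capitals mark the 5 filter codons, found in frame as ACNGTNGGNTANGGN, with N for any base, which occurred once in each coding sequence. The letters come from GRCm38 with GENCODE M21 coding sequences, 5′ to 3′ on the coding strand, at chr6:126642207-126642266 (minus strand) for Kcna1, chr3:107105200-107105259 (plus) for Kcna2, chr3:107037587-107037646 (plus) for Kcna3, chr2:107296471-107296530 (plus) for Kcna4 and chr6:126738626-126738685 (minus) for Kcna6. All 5 stretches are exonic and coding.
Kcna1: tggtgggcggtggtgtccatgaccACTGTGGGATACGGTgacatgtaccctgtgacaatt
Kcna2: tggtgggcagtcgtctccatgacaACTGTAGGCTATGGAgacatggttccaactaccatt
Kcna3: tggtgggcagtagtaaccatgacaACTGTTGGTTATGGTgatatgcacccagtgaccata
Kcna4: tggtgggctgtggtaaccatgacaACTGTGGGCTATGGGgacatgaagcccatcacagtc
Kcna6: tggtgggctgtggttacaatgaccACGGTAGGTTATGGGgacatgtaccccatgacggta

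Within these 60 bases Kcna1 and Kcna2 differed at 16 positions, 4 of them among the 15 bases of the filter. Over the whole coding sequence, pairs of alpha genes were 71.5 to 77.6% identical, and the longest stretch that any pair shared without a mismatch was 31 bases (Kcna1 and Kcna6), against reads of 150 bases. Pairs of beta genes were 67.8 to 76.9% identical, with a longest shared stretch of 26 bases between Kcnab1 and Kcnab2. The end of the alpha coding sequences carries the motif by which Kv1 channels bind PDZ proteins of the Dlg family. The last 30 coding bases before the stop codon are given below, with the last 3 codons in capitals.
Kcna1: gttaataagagcaagctcctgACCGATGTT
Kcna2: gtgaatattaccaaaatgttaACTGATGTC
Kcna3: gtcaacatcaagaagatattcACTGATGTC
Kcna4: tctaatgcaaaggctgtggagACTGATGTG
Kcna6: tatgcggagaaaaggatgctcACCGAGGTT

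These codons read threonine, aspartate and valine in Kcna1, Kcna2, Kcna3 and Kcna4, and threonine, glutamate and valine in Kcna6. On chromosome 3, Kcna3 (107036169 to 107038070) and Kcna2 (107101146 to 107115005) are 63075 bases apart, and on chromosome 6, Kcna1 (126640397 to 126646384) and Kcna6 (126708329 to 126740674) are 61944 bases apart. Kcna4 is on chromosome 2 (107290639 to 107298502), Kcnab1 on chromosome 3 (65109384 to 65378223), Kcnab2 on chromosome 4 (152390742 to 152477871) and Kcnab3 on chromosome 11 (69326258 to 69333042). Kcna1, Kcna2, Kcna3 and Kcna4 share no exon base with another gene. In Kcna6, 39.6% of exon bases, among them all 1587 coding bases, lie under exons of the antisense gene Gm26673, and the share was 5.13% in Kcnab3, 2.34% in Kcnab1 and 2.24% in Kcnab2. Strand use in counting is not stated, so Kcna6 reads in the shared part cannot be told from those of Gm26673, and Kcna6 levels are uncertain.

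The libraries held 7454165 to 15462544 counts, and 26257 genes passed the filter on low counts, all 8 members among them. They differed widely in a background of sensory receptor reads (1721 genes of olfactory and vomeronasal receptors, whose usual place is the nose), from 92.8 to 4407 CPM (here counts over the library's total count, scaled to an equal total). For the members and other named genes, CPM was also scaled by edgeR's TMM factor, which multiplied the plain value by 0.731 to 1.03 in libraries of high background and by 1.10 to 1.24 in those of low background. A low background, under 500 CPM, was seen in replicates 7, 8 and 9 of the eGFP group and replicates 6 and 7 of the other. A high one, over 1500 CPM, was seen in replicates 1 to 4 of the eGFP group and replicates 1 and 3 of the other, and the other 5 libraries (2 eGFP, 3 eGFP-GluA2) were in between. The cause of the background was not tested. Gria2, which encodes GluA2, was at 587 ± 111 CPM in eGFP and 963 ± 215 CPM (SD, n = 7) in eGFP-GluA2 libraries, and 5 of 7 exceeded all eGFP libraries. Its log2 fold change of 0.71 ± 0.16 (SE) had an adjusted p of 1.00 (edgeR quasi-likelihood test), and 0.68 ± 0.11 with an adjusted p of 0.0128 with the log2 background as a covariate. Whether reads of the transgene are counted under Gria2 is not stated. The listed markers of PV cells were abundant in every library. Their summed level was 969 to 2474 TPM (scaled to an equal total and for transcript length) in eGFP and 1080 to 3228 TPM in eGFP-GluA2 libraries. Gad1, an enzyme of GABA synthesis, was the most abundant, so the sum is not a measure of PV cells alone. Pvalb, which encodes parvalbumin, was at 100 to 414 TPM over all libraries.

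Compared per length, as TPM over all 16 libraries, Kcnab2 was the most abundant member and Kcna4 the least. Kcnab2 was at 128 ± 45.8 TPM (SD, n = 16) and lay above 99.1% of the genes tested. It was followed by Kcnab3 at 72.7 ± 20.1 TPM, Kcna1 at 67.3 ± 26.4 TPM, Kcnab1 at 64.6 ± 22.0 TPM and Kcna2 at 64.6 ± 22.6 TPM. After a gap came Kcna6 at 21.1 ± 4.93 TPM, Kcna3 at 10.4 ± 2.55 TPM and Kcna4 at 1.96 ± 1.47 TPM. The steps from Kcnab2 to Kcnab3, from Kcna2 to Kcna6, from Kcna6 to Kcna3 and from Kcna3 to Kcna4 held in 16 of 16 libraries. Kcnab3 exceeded Kcna1 in 13 of 16 libraries (9 of 9 eGFP, 4 of 7 eGFP-GluA2). Kcna1 exceeded Kcnab1 in 9 and Kcnab1 exceeded Kcna2 in 7, so the order of Kcna1, Kcnab1 and Kcna2 did not stand above the spread between libraries.

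**Figure D1:**
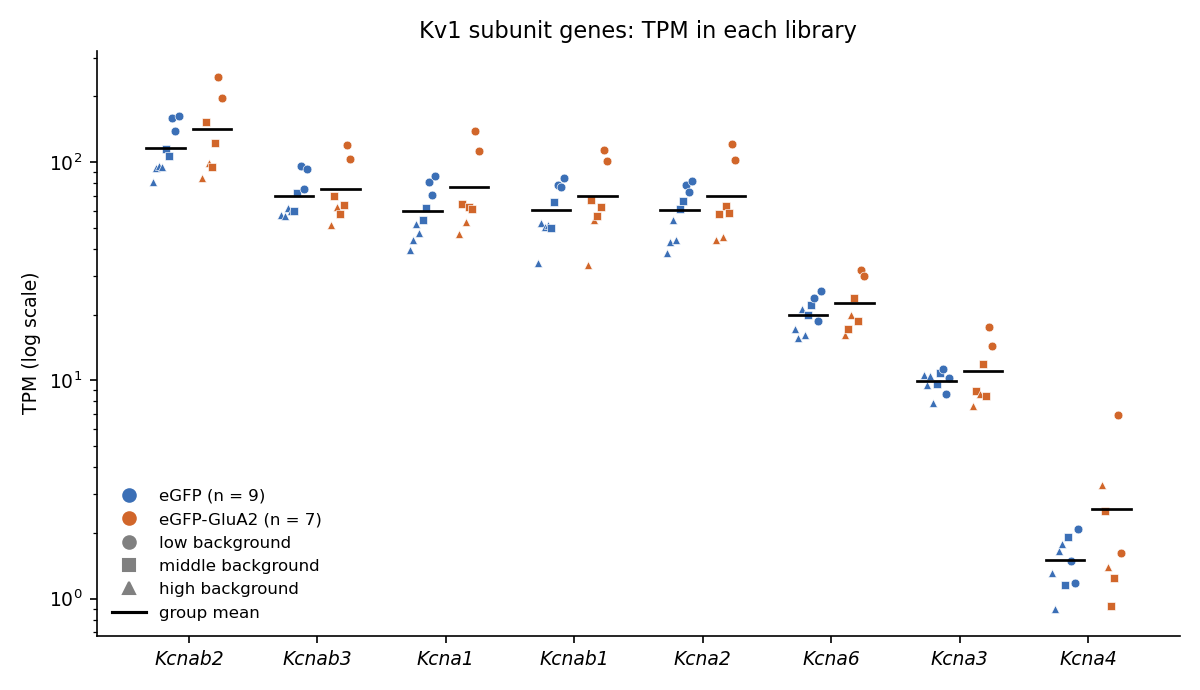
TPM (log axis) of the 8 Kv1 genes in each of 9 eGFP and 7 eGFP-GluA2 libraries; the point shape gives the background tier and the black line the group mean. Kcnab2 sits highest, Kcnab3, Kcna1, Kcnab1 and Kcna2 overlap, and Kcna6, Kcna3 and Kcna4 lie below them in that order.

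Kcna1 and Kcna2 made up most of the alpha message, in nearly equal parts. In eGFP libraries Kcna1 held 39.2% ± 1.95 and Kcna2 39.4% ± 2.08 (SD, n = 9) of the summed TPM of the 5 alpha genes. In eGFP-GluA2 libraries the shares were 41.5% ± 1.93 and 38.1% ± 1.50 (SD, n = 7). Kcna6, a neuronal alpha subunit, held 13.5% ± 1.55 in eGFP and 12.8% ± 1.95 in eGFP-GluA2 libraries. Kcna3, best known from T cells and also made in neurons, held 6.84% ± 1.59 and 6.18% ± 0.675. Kcna4, the alpha subunit with fast inactivation of its own, held 1.01% ± 0.280 and 1.40% ± 0.859. These shares were described without a test.

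Among beta genes, Kcnab2 held the largest share in every library. It made up 47.0% ± 2.07 of the summed TPM of the 3 beta genes in eGFP and 49.1% ± 2.63 in eGFP-GluA2 libraries. Kcnab3 held 28.7% ± 2.14 and 26.8% ± 2.18, and Kcnab1 24.3% ± 2.19 and 24.1% ± 2.31. The summed beta TPM was 1.64 ± 0.111 times the summed alpha TPM in eGFP and 1.58 ± 0.199 times in eGFP-GluA2 libraries. The group ranges of each share overlapped. Over all libraries the share of Kcnab2 ran from 43.4 to 52.7%, that of Kcna2 from 35.2 to 42.3% and that of Kcna3 from 4.99 to 9.90%, while the summed alpha level ran from 107 to 316 TPM.

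**Figure D2:**
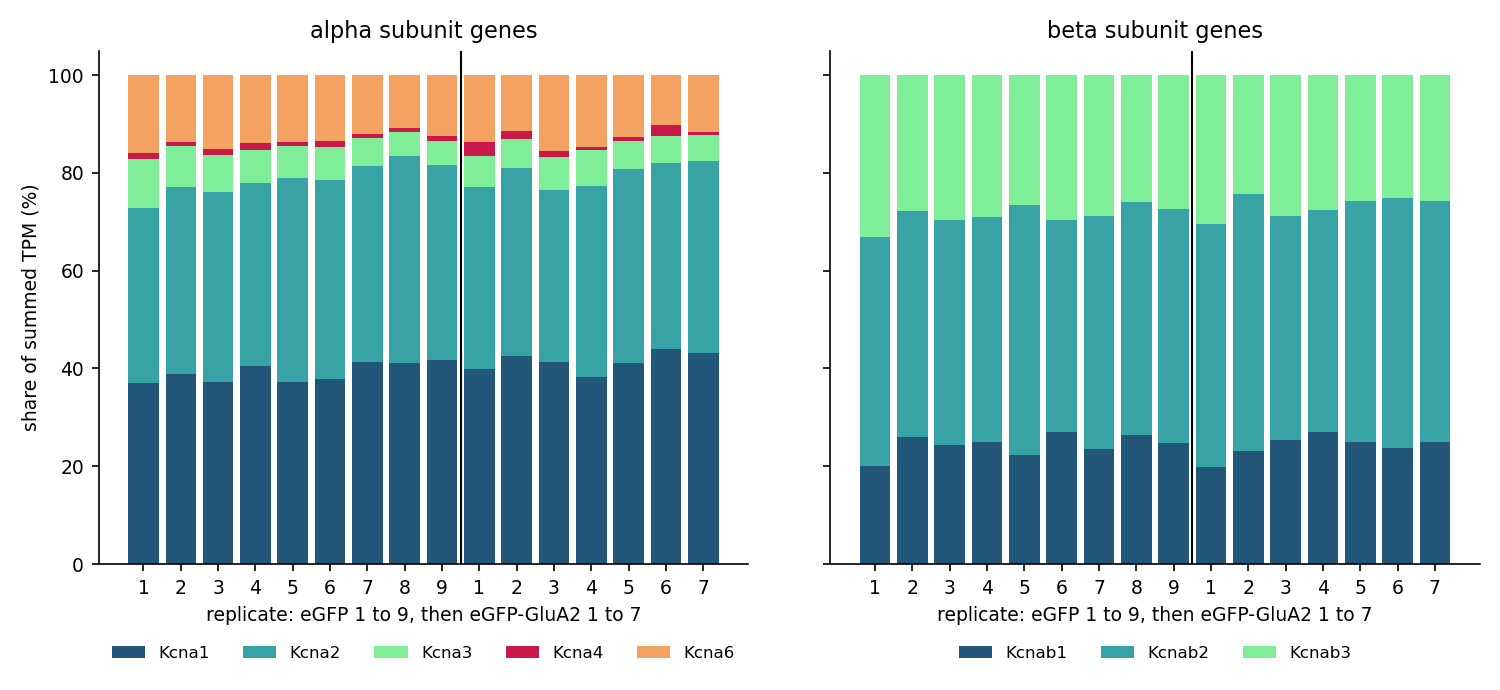
Share (%) of each gene in the summed TPM of the 5 alpha genes (left) and of the 3 beta genes (right), one stacked bar per library, eGFP before and eGFP-GluA2 after the vertical line. Kcna1 and Kcna2 form similar blocks in each bar on the left, and Kcnab2 is the largest block of each bar on the right.

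No member passed edgeR's quasi-likelihood test between eGFP-GluA2 and eGFP libraries. At an adjusted p under 0.05 it called 0 of 8 members, beside 0.00381% of all genes tested, and with the background as a covariate 0 of 8, beside 0.0343%. At an unadjusted p under 0.05 it also called 0 of 8, beside 1.12% of all genes, and 0 of 8 with the covariate, beside 3.78%. DESeq2, limma-voom and limma on TPM called no member either. The 95% interval of each member was wider without the covariate than with it. Without the covariate the intervals ran from -0.22 to 0.34 for Kcna4, the narrowest, to -0.59 to 0.70 for Kcnab2, the widest, and with the covariate that of Kcnab2 ran from -0.31 to 0.41.

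Kcna1, which encodes Kv1.1, had the largest fold change among the members without the covariate. It was at 181 (lowest), 436 (median) and 567 (highest) CPM in eGFP libraries and at 234, 500 and 635 CPM in eGFP-GluA2 libraries. The groups overlapped, but eGFP-GluA2 replicates 6 and 7 exceeded the highest of the controls. The mean was 403 ± 150 CPM (SD, n = 9) in eGFP and 463 ± 158 CPM (SD, n = 7) in eGFP-GluA2. The log2 fold change was 0.20 ± 0.28 (SE; 95% interval -0.38 to 0.78) without the covariate and 0.17 ± 0.15 (-0.13 to 0.47) with it, both with an adjusted p of 1.00 by edgeR. The exact two-sided permutation test on log2 CPM gave p = 0.468 over all 11440 assignments of libraries, and p = 0.486 over the 1500 that exchange libraries only within a background tier.

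Kcna2, which encodes Kv1.2, had the highest counts of the family. It was at 409, 1061 and 1385 CPM (lowest, median, highest) in eGFP and at 491, 1017 and 1310 CPM in eGFP-GluA2 libraries, so the eGFP-GluA2 range lay within the eGFP range. Means were 945 ± 361 and 959 ± 343 CPM, with a log2 fold change of 0.02 ± 0.29 (95% interval -0.59 to 0.63), and -0.01 ± 0.16 with the covariate. The exact permutation p was 0.899 over all assignments and 0.453 within tiers. In TPM, Kcna2 was highest in eGFP-GluA2 replicates 6 and 7, at 121 and 102 TPM, where the highest eGFP library was at 81.9 TPM. Those same libraries were the highest in TPM for each member but Kcna4, and they had the lowest background of all 16.

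Kcna6 was at 62.3, 113 and 134 CPM (lowest, median, highest) in eGFP and at 71.9, 120 and 147 CPM in eGFP-GluA2 libraries. The group means were the same, at 109 ± 26.7 and 109 ± 27.3 CPM, with a log2 fold change of -0.00 ± 0.19. Its level also depended on how it was counted. The reads recovered from the authors' normalized values were 1.66 times its deposited counts on average (1.33 to 1.90 over the libraries), against 0.964 to 1.06 for Kcna1, Kcna2, Kcna3 and the beta genes. The fold change on recovered reads was 0.05, and what part the overlap with Gm26673 has in the gap was not tested.

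Kcna3 and Kcna4 were the scarce members. Kcna3 was at 20.1, 36.4 and 52.6 CPM in eGFP and at 21.4, 42.6 and 54.6 CPM in eGFP-GluA2 libraries, with a log2 fold change of 0.08 ± 0.20. Kcna4 was at 5.98, 8.32 and 10.2 CPM and at 6.88, 9.00 and 10.7 CPM, with a log2 fold change of 0.06 ± 0.13. Its ranges all but coincided, and it rested on 51 to 147 counts per library. Recovered reads of Kcna4 were 0.708 to 2.71 times its deposited counts, and on recovered reads its log2 fold change was 0.56, with an unadjusted p of 0.0754 and an adjusted p of 1.00 by edgeR, so its size rests on the table used. Exact permutation p-values over all assignments were 0.790 for Kcna3 and 0.610 for Kcna4.

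The beta genes had overlapping groups as well. Kcnab2, which encodes the main Kvβ subunit of the brain, was at 232, 604 and 862 CPM in eGFP and at 258, 707 and 773 CPM in eGFP-GluA2 libraries. Its log2 fold change was 0.05 ± 0.30, and 0.05 ± 0.17 with the covariate. Kcnab3 was at 142, 242 and 335 CPM and at 134, 274 and 306 CPM, with a log2 fold change of -0.01 ± 0.23. Kcnab1 was at 113, 266 and 386 CPM and at 110, 295 and 350 CPM, with a log2 fold change of 0.04 ± 0.28. In TMM-scaled CPM the highest library of each beta gene was an eGFP library, while in TPM it was eGFP-GluA2 replicate 6. Exact permutation p-values over all assignments were 0.814 for Kcnab2, 0.998 for Kcnab3 and 0.872 for Kcnab1.

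**Figure D3:**
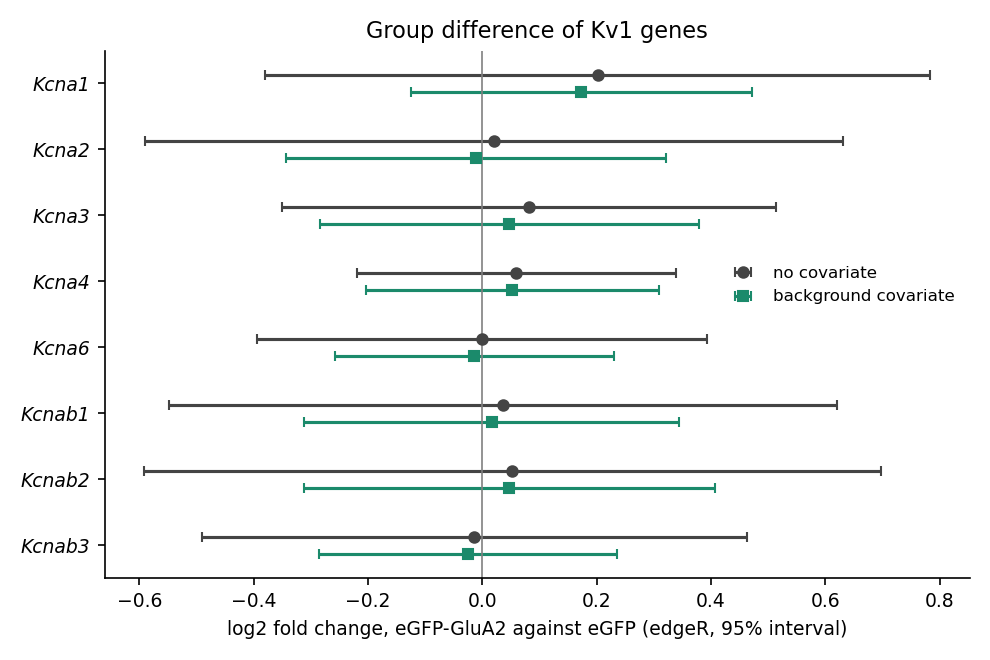
Log2 fold change of each Kv1 gene, eGFP-GluA2 against eGFP, with its 95% interval from edgeR, without a covariate (circles) and with the background as a covariate (squares). Every interval includes 0, the Kcna1 points lie farthest to the right at 0.20 and 0.17, and most intervals are narrower with the covariate.

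The authors' deposited table of their own comparison called no member. The authors' deposited table gave log2 fold changes of 0.11 for Kcna1, 0.03 for Kcna2, 0.02 for Kcna3, 0.27 for Kcna4, 0.02 for Kcna6, 0.02 for Kcnab1, 0.07 for Kcnab2 and -0.03 for Kcnab3. All 8 had an adjusted p of 1.00 there, and that table calls 0.0187% of its genes. Kcna4 had the smallest p of the members in the authors' deposited table, at 0.0757 (DESeq2). These fold changes are not like measures to those given above. On the reads recovered from that table, edgeR gave 0.20 ± 0.26 (SE) for Kcna1 and 0.56 ± 0.30 for Kcna4, where the authors' error was 0.15 for both. For each member the authors' value was the smaller in size, and the reason was not tested.

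The members differed between libraries of low and high background. From the high to the low background, the mean level on the log2 scale of TMM-scaled CPM was 2.45-fold higher for Kcnab2, 2.36-fold for Kcna2, 2.32-fold for Kcna1, 2.20-fold for Kcnab1, 1.92-fold for Kcnab3 and 1.61-fold for Kcna6. On that scale every library of low background lay above every library of high background for these 6 genes. With plain CPM, over total counts alone, the folds were smaller, at 1.72 for Kcnab2, 1.65 for Kcna2, 1.63 for Kcna1, 1.54 for Kcnab1, 1.35 for Kcnab3 and 1.13 for Kcna6, and the tiers of Kcna6 overlapped. In TPM they were 1.94, 2.00, 2.01, 1.98, 1.66 and 1.44 in the same order, and Kcna6 overlapped again. In TMM-scaled CPM, Kcna1 spanned 181 to 355 CPM where the background was high and 533 to 635 CPM where it was low. Kcna3 (1.48-fold) and Kcna4 (1.07-fold) overlapped between the tiers on all 3 scales, and for Kcna4 plain CPM turned the direction, to 0.751-fold. Over all genes tested, the median log2 difference between the same tiers was -0.19 in TMM-scaled CPM, -0.72 in plain CPM and -0.33 in TPM. The share of genes with each low-background library above each high-background one was 26.0%, 9.59% and 12.96% on these scales, beside 6, 5 and 5 of the 8 members. The summed PV markers moved the same way, with a mean of 1229 TPM where the background was high, 1680 TPM in the middle and 2545 TPM where it was low. Libraries of high background also had counts for more genes (47975 to 49971) than those of low background (30087 to 33334). In bulk samples, fewer PV cells, less Kv1 RNA per cell and a larger share of reads from other genes cannot be told apart. The part of each was not tested.

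**Figure D4:**
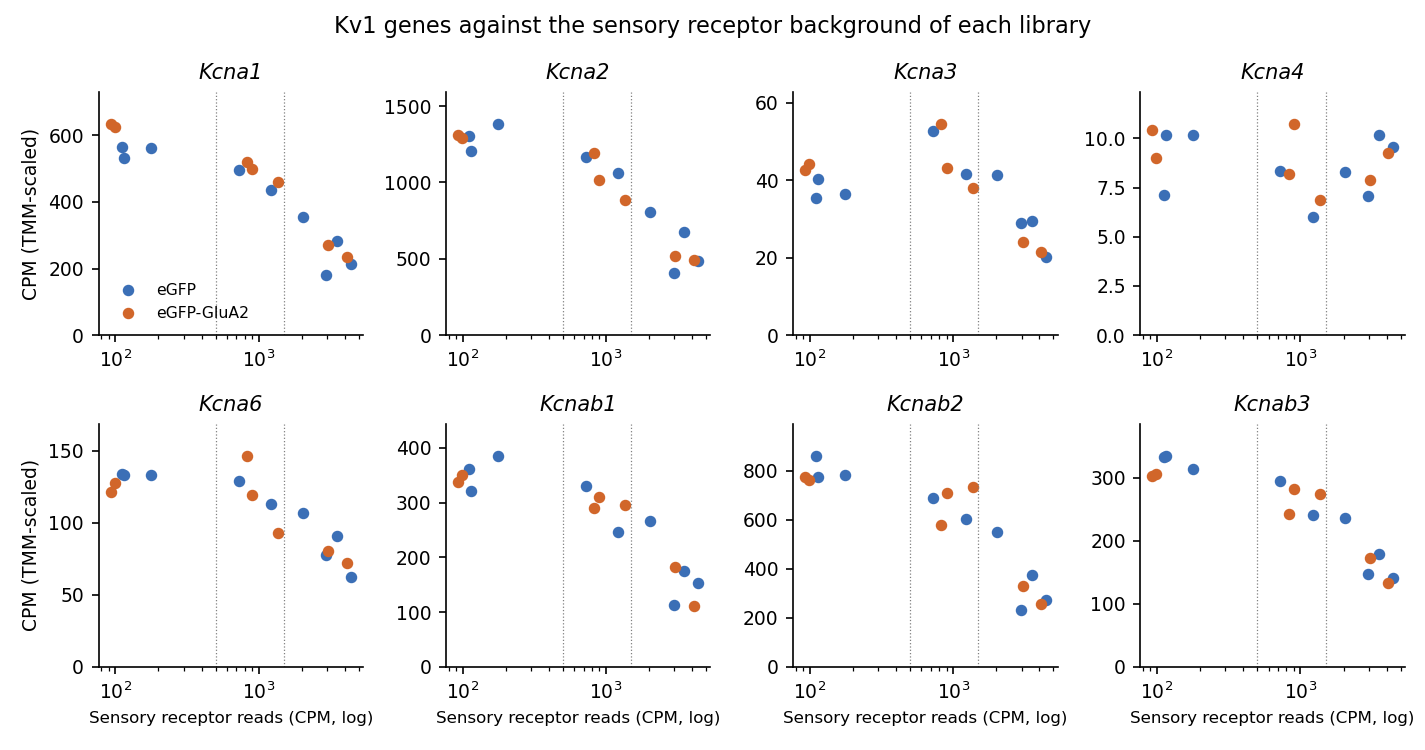
TMM-scaled CPM of each Kv1 gene (linear axis from 0) against the plain CPM of sensory receptor reads (log axis) in the same library, eGFP and eGFP-GluA2 in colour. Kcna1, Kcna2, Kcnab1, Kcnab2, Kcnab3 and Kcna6 lie lower on the right than on the left in both groups, and Kcna4 stays at 5.98 to 10.7 CPM throughout.

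Within tiers of like background the group differences were small, and they changed sign between tiers for each member but Kcna1, Kcna6 and Kcnab3. Kcna1 was higher in eGFP-GluA2 libraries by 0.19 log2 CPM in the low tier, 0.08 in the middle tier and 0.01 in the high tier. Kcna6 (-0.10, -0.04 and -0.12 in the same order) and Kcnab3 (-0.10, -0.01 and -0.18) were lower in each tier. Kcna2 differed by 0.002, -0.11 and -0.19. Kcnab2 differed by -0.07, 0.06 and -0.21, and Kcna3 by 0.22, -0.06 and -0.35. In the low tier, of 3 eGFP and 2 eGFP-GluA2 libraries, Kcna1 and Kcna3 lay above eGFP without overlap, as did 9.23% of all genes tested. In that tier Kcna6, Kcnab2 and Kcnab3 lay below eGFP without overlap, as did 15.3% of all genes. In the middle and high tiers, and over all libraries, the groups of each member overlapped. A fit of the low tier alone gave Kcna1 a log2 fold change of 0.22 with an unadjusted p of 0.00093 and an adjusted p of 0.0804 by edgeR. Kcna3 was at 0.25 there, with an unadjusted p of 0.0169 and an adjusted p of 0.285 by edgeR. Of 19457 genes in this fit, 2284 had an unadjusted p under 0.05 and 154 were called. An unadjusted p under 0.05, as Kcna3 had, was thus common in it. That count does not say how common a p as small as that of Kcna1 was. The fit rests on 3 eGFP and 2 eGFP-GluA2 libraries.

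The level of Kcna1 relative to Kcna2 varied far less than either gene, and it is given as a description because this pair, of 28 pairs of members, was chosen after the values were seen. In deposited counts the ratio was 0.405, 0.434 and 0.442 (lowest, median, highest) in eGFP libraries and 0.434, 0.485 and 0.521 in eGFP-GluA2 libraries. Of the 7 eGFP-GluA2 values, 6 exceeded the highest eGFP value, and that of replicate 4, at 0.434, did not. The means were 0.429 ± 0.0141 (SD, n = 9) and 0.487 ± 0.0290 (SD, n = 7), a log2 difference of 0.18, which was 0.19 in the low tier, 0.19 in the middle tier and 0.20 in the high tier. In the eGFP group the ratio of high-background libraries (0.418 to 0.442) overlapped that of low-background libraries (0.405 to 0.441).

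The ratio was less set apart in the authors' other tables. In TPM it was 0.996 ± 0.0617 in eGFP and 1.09 ± 0.0653 in eGFP-GluA2 libraries, with 4 of 7 above the highest eGFP value. In recovered reads it was 0.414 ± 0.0257 and 0.453 ± 0.0272, again with 4 of 7 above. Both gave a log2 difference of 0.13. From library to library the TPM ratio followed the recovered-read ratio almost exactly, so these are not separate results. As a background, the same ratio to Kcna2 was formed in deposited counts for 8256 protein-coding genes with a mean log2 CPM of at least 4. In 0.0242% of them, 2 genes, at least 6 of 7 eGFP-GluA2 values exceeded the highest eGFP value. These were Kcna1 and Fam234b, a gene on the same chromosome (chromosome 6, 135197977 to 135244955) with a log2 ratio difference of 0.39, named here after its values were seen. Gria2 had 2 of 7 by this measure. Both the count of 6 and the denominator were taken from the Kcna1 and Kcna2 pair itself and the background was formed in deposited counts alone, so nothing is read from this share.

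**Figure D5:**
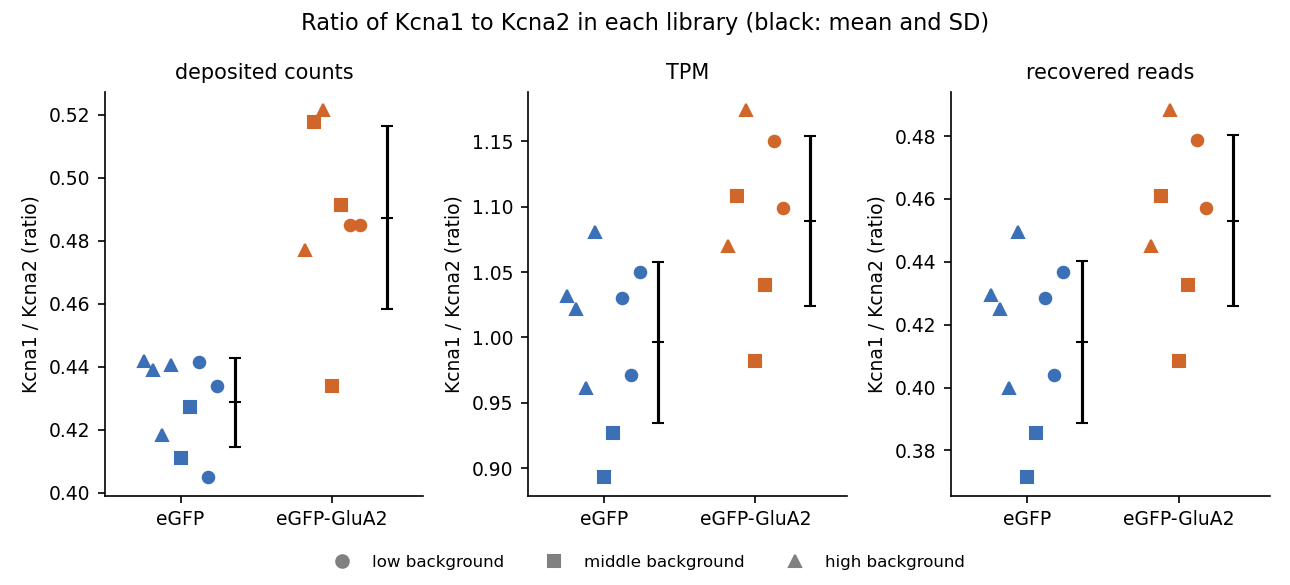
Ratio of Kcna1 to Kcna2 in each library (axes do not start at 0) in deposited counts, TPM and recovered reads, with mean and SD in black and the background tier as point shape. In deposited counts 6 of 7 eGFP-GluA2 points lie higher than all eGFP points, and in TPM and recovered reads 4 of 7 do.

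Against the other members Kcna1 was less distinct. In the ratio of Kcna1 to Kcnab2, 5 of 7 eGFP-GluA2 values exceeded the eGFP range and 1 was below it. The number above was 4 against Kcnab1, 3 against Kcna6 and 3 against Kcnab3, and 0 against Kcna3 and Kcna4. Within tiers, some pairs of members varied together from library to library more closely than others. After the mean of each tier was subtracted, Pearson's r of log2 CPM over 16 libraries was 0.93 for Kcnab2 with Kcnab3, 0.91 for Kcnab1 with Kcnab2 and 0.87 for Kcna1 with Kcna2. Kcna4 had an r of 0.05 to 0.28 with the other 7 members. Among pairs without Kcna4 the lowest were Kcna6 with Kcnab2 (0.51) and Kcna3 with Kcnab2 (0.52). These were below 0.57, the median r of Kcnab2 with 8250 protein-coding genes. These values share libraries and depth and are descriptions.

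The genes most like each main member were found by the same measure over 8250 protein-coding genes. For Kcna1 they were Tnfrsf21 (r = 0.97), Caln1 (0.95) and Hapln4 (0.95), the last a link protein of perineuronal nets. For Kcna2 they were Slc24a2 (0.99), a sodium, calcium and potassium exchanger, Scamp1 (0.98) and March6 (0.98). For Kcnab1 they were Chp1 (0.96), Vamp1 (0.95), a vesicle SNARE protein, and Ythdf2 (0.95). For Kcnab2 they were Nsg1 (0.99), Sult4a1 (0.98) and Ndrg4 (0.98). The median r over all these genes was 0.53 to 0.59, and Pvalb, the defining calcium buffer of PV cells, reached 0.71 to 0.89.

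Partners of Kv1 channels at the axon and the other Kv1 alpha genes were examined as a list of 20. It holds the LGI ligands and their ADAM receptors, contactin and Caspr adhesion molecules, Dlg scaffolds, the ankyrin, spectrin and Epb41l3 of the membrane skeleton, the actin-binding Cttn, and Kcna5, Kcna7 and Kcna10. Of the 19 that passed the filter (Kcna7, at 0 to 28 counts, did not), 0 were called, 0 had an unadjusted p under 0.05 by edgeR, and 13 had a log2 fold change above 0, with a median of 0.05. Of the 8 members 6 were above 0, with a median of 0.04, and of all genes tested 45.5% were above 0, with a median of -0.02. With the background as a covariate, 12 of 19 partners and 5 of 8 members were above 0, beside 53.1% of all genes.

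The most abundant partners were Ank3, the ankyrin G that builds the axon initial segment, at 115 TPM, and Cntnap2, the Caspr2 that gathers Kv1 channels beside nodes, at 94.4 TPM. Their log2 fold changes were 0.04 ± 0.21 and -0.05 ± 0.22. Without the covariate, the smallest p-values of the list belonged to Lgi1, Cntn2, Adam11 and Lgi3. Lgi1, a secreted ligand of the Kv1 complex, was at -0.10 ± 0.09, and Cntn2, the contactin partner of Caspr2, at 0.15 ± 0.16. Adam11, of the ADAM family, was at 0.12 ± 0.14 and Lgi3 at 0.21 ± 0.25. Each had an adjusted p of 1.00 by edgeR. With the covariate the smallest belonged to Kcna5, an alpha gene better known from the heart, at 0.33 ± 0.18, and Dlg1, a PDZ scaffold, at -0.16 ± 0.10, both with an adjusted p of 1.00 by edgeR and both named after their values were seen. Dlg1 was lower in eGFP-GluA2 libraries in each tier, by -0.25 (low), -0.10 (middle) and -0.27 (high) log2 CPM, and the exact permutation test within tiers gave p = 0.0187, with an adjusted p of 0.867.

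Kv1 genes are also expressed by other neurons, so markers of other cells are given beside these results, and their part in them was not tested. Excitatory neuron markers summed to 48.4 to 72.4 TPM in eGFP and 59.7 to 100 TPM in eGFP-GluA2 libraries, with Cux2 the most abundant. Markers of other interneurons summed to 84.6 to 174 and 77.9 to 207 TPM, mostly Cck. Oligodendrocyte markers summed to 17.7 to 52.0 and 24.8 to 50.1 TPM (Mbp the most abundant), and astrocyte markers to 16.1 to 36.9 and 14.0 to 34.9 TPM (Slc1a2). Immune markers summed to 2.76 to 14.9 and 4.80 to 13.2 TPM (P2ry12), and endothelial and mural markers to 2.83 to 16.1 and 4.19 to 16.4 TPM (Pecam1). Of these markers 0 were called by edgeR without the covariate, beside 0.00381% of all genes tested, and 0 were at 0 in every library. Log2 fold changes were above 0 for 7 of 8 excitatory markers (median 0.16), 6 of 7 oligodendrocyte markers (0.19) and 5 of 7 of other interneurons (0.07). They were above 0 for 5 of 8 immune (0.05), 3 of 6 endothelial and mural (0.05) and 2 of 6 astrocyte markers (-0.04). Of all genes tested 45.5% were above 0, with a median of -0.02.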

How the data were processed

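RNA was measured in sorted cortical PV interneurons, 9 eGFP and 7 eGFP-GluA2 libraries, with 150-bp paired reads. Per the series' design text, the authors used bcbio-nextgen 1.2.3, with STAR alignment to GRCm38, gene quantification by Sailfish (Ensembl annotation) and DESeq2 for the comparison. The deposited counts are whole numbers per gene, not normalized. The deposited TPM values were scaled by the authors for transcript length. Another deposited table gives signal values made by the authors from gene counts over a library's size factor. The same deposited table gives the authors' log2 fold change and its error, raw and adjusted p-values and a score, the statistic of their test. Of the signal values 100% were whole multiples of a read, within a tolerance of 0.001, which gave 10477517 to 17382059 recovered reads per library. These differ from the deposited counts, and strand use is not stated in the sources used.

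Total counts were 7454165 to 15462544 per library. The main test was edgeR 4.0.16 on deposited counts of all 16 libraries (TMM, filterByExpr with the group, robust quasi-likelihood F test, Benjamini-Hochberg over 26257 genes, threshold 0.05). Standard errors come from the F statistic, and CPM and log2 CPM (prior count 2) of genes from the same counts with TMM factors, while background CPM is over total counts alone. The same fit was run with the log2 background as a covariate. Background tiers were cut at 500 and 1500 CPM. Exact two-sided permutation tests of log2 CPM were run for every tested gene, and members' adjusted values were 1.00 over all assignments. Alternatives were DESeq2 1.42.0, limma 3.58.1, other scalings and filters, TPM with pseudocounts of 0.1, 0.5 and 1, recovered reads, a replicate block, 1 surrogate variable (sva 3.50.0) and leaving out each library. R 4.3.3 and Python 3.11.15 were used.

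The rule for members uses names only, but the members, lists, tiers and alternatives were chosen with earlier results of these data known. Fits and tier values without TMM factors, and tier values in TPM, were added after seeing the data. The named genes are the 8 members, Gria2 and Pvalb, the 4 partners of smallest p and the 2 of highest TPM, the 3 genes most like each of Kcna1, Kcna2, Kcnab1 and Kcnab2, and the most abundant marker of each list. Sequences and coordinates (1-based) are from GRCm38 and GENCODE M21.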

Additional observations from a re-analysis of the deposited data

Results flagged for a closer look

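The TPM of Kcna4 in eGFP-GluA2 replicate 6 was 6.97, far from the rest of its group: the next library was at 3.31 TPM, and the gap made up 0.605 of the group's whole range. In deposited counts the same library was not set apart, with 147 counts for Kcna4 (10.4 CPM, against 10.7 CPM in replicate 5). Its recovered reads were 2.71 times its deposited counts, the highest such value among the 16 libraries for Kcna4, where the lowest was 0.708. In all, 32 groups of values were examined in this way, of which chance would set apart about 5%.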

How the results depend on the processing

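Of 36 alternatives per member, 0 brought a member past the threshold, and the lowest adjusted p was 0.0804, for Kcna1 among libraries with a background under 500 CPM. Kcna1 kept its direction under all 36 (log2 fold change 0.08 to 0.35). Its unadjusted p by edgeR was 0.474 in the fit as reported. It was 0.0140 with a replicate block (adjusted p 0.515) and 0.0130 under 1500 CPM with the covariate (adjusted p 0.566). In the last 2 fits, 2236 of 25633 and 1476 of 21492 genes had an unadjusted p under 0.05 by edgeR. The direction turned in 12 for Kcna2, 3 for Kcna3, 1 for Kcna4, 14 for Kcna6, 9 for Kcnab1, 10 for Kcnab2 and 11 for Kcnab3, and the cause was not tested. With the background as a covariate Kcna2 was at -0.011 and Pvalb at 0.033, and 9 genes were called in all. With 1 surrogate variable Kcna2 was at -0.025, Pvalb at 0.0084 and 9 genes were called. With tiers as a block Kcna2 was at -0.12, Kcna3 at -0.073, Kcnab1 at -0.096, Kcnab2 at -0.10 and Ank3 at -0.092, with 11 genes called, and exact permutation within tiers (added after seeing the data) gave mean differences of -0.10, -0.083, -0.088, -0.084 and -0.092 for the same genes. Among libraries under 1500 CPM, Kcna2 was at -0.083, Kcnab1 at -0.034, Kcnab2 at -0.041 and Ank3 at -0.025, with 3 genes called. With the covariate added there, also after seeing the data, Kcna2 was at -0.045 and Ank3 at -0.023, with 56 called. Under 500 CPM, Kcnab1 was at -0.015 and Kcnab2 at -0.037, with 154 called. On log2(TPM + 0.5), filtered or not, Kcna6 was at 0.141, Kcnab3 at 0.0696, Lgi1 at 0.0895, Cntnap2 at 0.0611 and Pvalb at 0.144, with 2 genes called. A pseudocount of 0.1 gave 0.143, 0.0699, 0.0929, 0.0613 and 0.145 for these, and 1 gave 0.138, 0.0694, 0.0855, 0.0609 and 0.144, each with 2 called. Recovered reads gave 0.050 for Kcna6 and 3 calls. No filter gave 0.00011 for Kcna6, limma-voom 0.067 for Pvalb, and upper-quartile scaling 0.0077 for Pvalb and 2 calls. Total counts without scaling factors (added after seeing the data) gave 0.017 for Pvalb and 2 calls. On the same scaling, the log2 difference of Kcna4 between low and high background was -0.41, where it was 0.10 as reported. DESeq2 called 9 genes in all and the fit of protein-coding genes 0 (196 at an unadjusted p under 0.05 by edgeR), where the fit as reported called 1. Leaving out each library in turn gave -0.078 to 0.13 for Kcna2, -0.018 to 0.19 for Kcna3, -0.018 to 0.10 for Kcna4, -0.075 to 0.079 for Kcna6, -0.063 to 0.17 for Kcnab1, -0.050 to 0.18 for Kcnab2, -0.088 to 0.091 for Kcnab3, -0.13 to 0.046 for Cntnap2, -0.031 to 0.13 for Ank3 and -0.12 to 0.12 for Pvalb. A replicate block over the numbers 1 to 7 gave 0.059 for Kcna6, 0.094 for Kcnab3, 0.037 for Cntnap2 and 0.30 for Pvalb, with 8 genes called and no member among them. Same-numbered libraries correlated at -0.03 to 0.90, and 2 of 7 eGFP-GluA2 libraries correlated best with their own number, so the numbers were not taken as pairs. Kcna4 rested on 51 to 147 counts per library.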
